A study of Mus musculus with 2 samples.

Results

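The polyamine metabolism genes described here are Odc1 and 9 genes that make, break down or regulate the same small molecules: Amd1, Srm, Sms, Sat1, Smox, Paox, Oaz1, Oaz2 and Azin1. They were chosen by gene symbol from the 23418 rows of the deposited table, and all 10 had a row. Odc1 was picked out because of its counts in these same libraries, so its counts and ratios are a description and carry no test. The study injected C57BL/6 mouse embryos with siRNA against Dnmt1 (siDnmt1), the enzyme that maintains DNA methylation, or with a scrambled siRNA, and addressed how Dnmt1 acts on retroelements in the early embryo. Each group was 1 library of poly(A) RNA from a pool of 20 embryos at the 4/8-cell stage, in which both stages are mixed. No difference below therefore has a replicate check, and every interval is a 95% Clopper-Pearson interval that covers counting error alone. The intervals take each count as an independent read, which copies made by amplification are not, so they may be too narrow. Limits for a count of 0 use a floor of 3 counts instead.

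Putrescine, spermidine and spermine are positively charged molecules that bind nucleic acids and are needed for growth and division. Ornithine decarboxylase, the product of Odc1, makes putrescine from ornithine in the first step committed to the pathway. Spermidine synthase (Srm) and spermine synthase (Sms) then add aminopropyl groups that come from S-adenosylmethionine after its decarboxylation by the product of Amd1. Antizymes (Oaz1, Oaz2) bind ornithine decarboxylase and send it to the proteasome, and the antizyme inhibitor Azin1, a relative of ornithine decarboxylase without its activity, takes antizyme away. Mouse embryos that lack Odc1 die shortly after implantation.

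Odc1 was the row with the most counts after Rn45s, the ribosomal RNA precursor, in both libraries (rank 2 of all rows). It had 1265701 counts in siDnmt1 and 2005935 in scrambled. Its share of all counts was 10.34% (95% interval 10.33 to 10.36) in siDnmt1 and 17.18% (17.16 to 17.20) in scrambled. Without the Rn45s row, which took 37.3% and 29.9% of the counts, the shares were 16.50% (16.48 to 16.53) and 24.50% (24.47 to 24.53). The scrambled library thus held the larger share on both denominators. The count was 1.58-fold lower in siDnmt1 (1.58 to 1.59), a log2 ratio of -0.66 after 5 was added to each count. These intervals are narrow because the counts are large. The spread between embryo pools is not known.

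**Figure D1:**
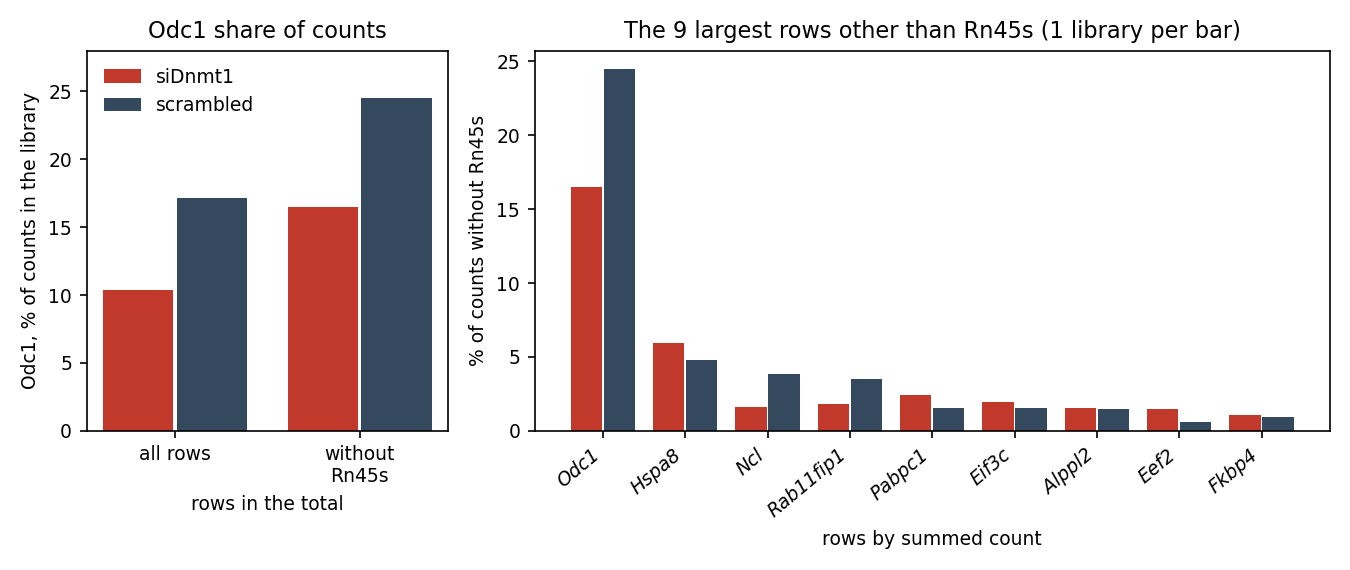
Share of counts in each library, in percent (siDnmt1 red, scrambled dark blue, 1 library per bar, so no error bars). The left panel gives Odc1 over all rows and without Rn45s, and the right panel the 9 largest rows other than Rn45s, where Odc1 stands at 16.5% and 24.5% and no other row exceeds 5.94%.

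The ratio of Odc1 was not unusual among the genes compared. The genes compared were the 7315 that averaged at least 20 counts over the libraries. Of these, 25.1% were as low as Odc1 in log2 ratio or lower, and the middle 50% of genes ran from -0.67 to 0.57. Among the 76 rows with a mean of at least 10000 counts, Rn45s left aside, 10 others were as low as Odc1 or lower. What set Odc1 apart was its level. It had 2.78 times the counts of the next row in siDnmt1 and 5.10 times in scrambled. That row was Hspa8, a constitutive heat shock chaperone, with 455959 and 393279 counts. Per length the order was the same, with 573234 and 908485 counts per kb of transcript for Odc1 against 190459 and 164277 for Hspa8.

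The other rows near the top moved in both directions. Ncl, which encodes nucleolin, had 125324 counts in siDnmt1 against 312275 in scrambled (2.49-fold lower). Rab11fip1, a partner of the endosomal GTPase Rab11, had 137083 against 285136 (2.08-fold lower). Eef2, a translation elongation factor, was 2.21-fold higher at 113825 against 51544. Pabpc1, a poly(A)-binding protein gene, was 1.49-fold and Eif3c, a subunit of an initiation factor, 1.21-fold higher. Alppl2, an alkaline phosphatase gene of early embryos, was 1.05-fold lower and Fkbp4, a cochaperone gene, 1.06-fold higher.

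The size of the Odc1 row bears on how the libraries are scaled. Without Rn45s, the total of the siDnmt1 library minus that of the scrambled library was -517778 counts. For Odc1 alone the same difference was -740234 counts. All rows other than Rn45s and Odc1 together therefore held more counts in siDnmt1, 6404462 against 6182006. In a bulk pool such as this, fewer cells with a transcript and less of it per cell cannot be told apart.

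Odc1 and several other members have near copies in the mouse genome, mostly processed pseudogenes, and how reads that match several places were counted is not stated in the sources used here. As a measure of this, the share of each transcript's 31-base words that also occur in a transcript of another gene was counted in the GENCODE M21 annotation. It was 52.0% for Odc1, spread over 20 other genes. Of these 20 genes, 1 had a row of its own in the table, Gm15645, with 289 counts in siDnmt1 and 594 in scrambled. The share was 92.3% for Amd1, nearly all of it in common with Amd2 (91.3%), and 56.7% for Oaz1, all in common with Oaz1-ps. It was 33.1% for Paox, 29.0% for Sms, 18.6% for Oaz2, 17.8% for Sat1, 11.2% for Srm, 6.90% for Azin1 and 0% for Smox. The part of such copies in the counts was not tested.

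The promoter sequences are given for Odc1, the most abundant member, and Sms, the synthesis gene that was higher in siDnmt1, because CpG sites are what Dnmt1 methylates. They come from RefSeq on GRCm38.p6, not the mm9 build named for the counts, run 5′ to 3′, end before the first transcribed base in RefSeq and GENCODE, and have each CG in capitals. That of Odc1 is chr12:17544623-17544793 on the plus strand, and that of Sms is chrX:157492288-157492537 on the minus strand, upstream of the farther of 2 RefSeq starts.
Odc1: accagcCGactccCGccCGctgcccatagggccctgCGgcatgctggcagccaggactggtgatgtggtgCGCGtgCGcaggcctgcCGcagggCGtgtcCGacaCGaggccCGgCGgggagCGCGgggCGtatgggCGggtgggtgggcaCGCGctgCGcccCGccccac
Sms: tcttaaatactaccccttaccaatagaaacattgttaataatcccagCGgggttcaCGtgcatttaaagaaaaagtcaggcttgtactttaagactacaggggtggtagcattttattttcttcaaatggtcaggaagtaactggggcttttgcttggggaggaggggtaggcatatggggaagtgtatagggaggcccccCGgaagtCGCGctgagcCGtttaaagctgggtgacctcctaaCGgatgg

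The Odc1 stretch holds 21 CG sites in 171 bases and the Sms stretch 7 in 250. Over the full RefSeq window of 300 bases (250 before the start and 50 after), Odc1 had 42 CG sites, at or above 97.4% of the 32851 promoter windows in the table. The median window had 7. The farther Sms window had 12 CG sites, at or above 62.1% of the windows. The nearer one had 38, at or above 95.6%, which is close to Odc1. A window was found for 8 of the 10 members, all but Srm and Azin1. Those of the others held 15 to 29 CG sites. The E-box CACGTG, a sequence bound by Myc and related factors, was searched on both strands. It occurred once in the farther Sms window and in no other member window, against 7.15% of all windows. Sequence outside the windows was not searched, so an E-box elsewhere in these genes would not be seen. The GC box GGGCGG occurred in the windows of Odc1 (4 times), Amd1, Sat1, Smox, Paox, Oaz2 and the nearer start of Sms, against 35.7% of all windows. These are matches of letters, and no methylation was measured here.

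Of the 10 members, 5 had a mean of at least 20 counts (Odc1, Srm, Sms, Sat1 and Azin1), 3 had fewer counts and 2 had none in either library. None of the 5 reached 2-fold in either direction (0 and 0), whereas 12.5% of the genes compared reached it upward and 16.7% downward. Past 4-fold there was likewise no member (0 and 0), against 2.64% upward and 4.51% downward. At 1.5-fold, Sms and Azin1 counted as higher and Odc1 and Sat1 as lower, 2 and 2 of 5, against 24.7% and 28% of all genes compared. Over 5 members these counts are a description only. With equal totals without Rn45s, Odc1 (-0.57) and Sat1 (-0.54) no longer reached 1.5-fold. With the general trend of ratio with transcript length removed, Srm (0.60) counted as higher and neither Odc1 (-0.50) nor Sat1 (0.27) as lower. The median log2 ratio of the members was -0.12, the value of Srm, against -0.02 over all genes compared. It was 0.60 with the length trend removed and 0.35 at a mean of at least 100 counts, so its direction depends on these settings. The 5 members ranged from -0.66 for Odc1 to 0.86 for Azin1.

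**Figure D2:**
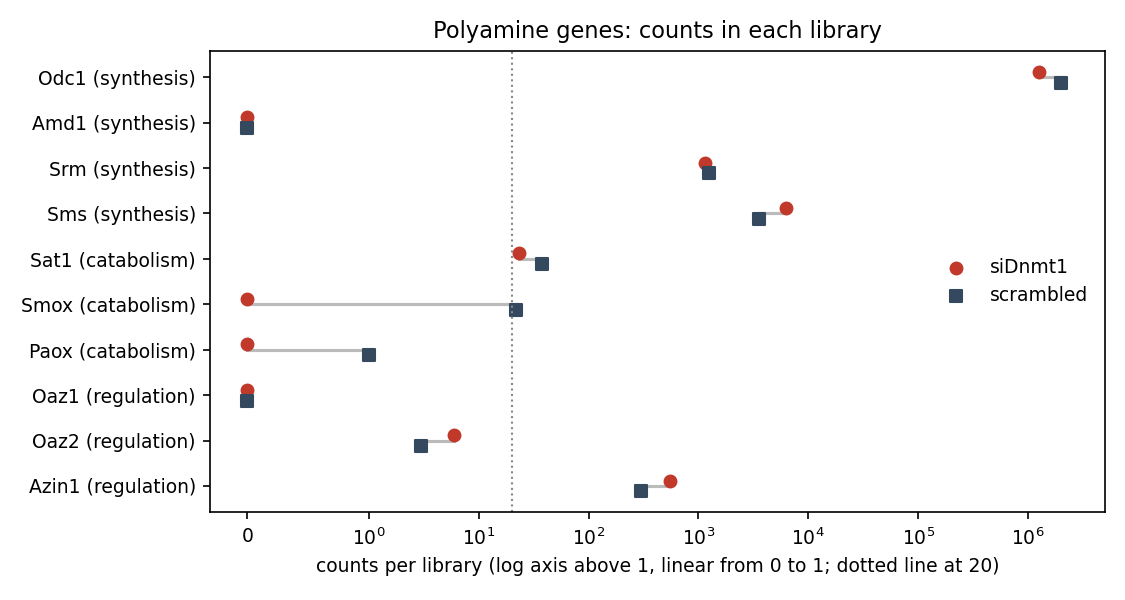
Counts of the 10 polyamine genes in the siDnmt1 library (red circles) and the scrambled library (dark blue squares), on an axis that is linear from 0 to 1 and logarithmic above. Odc1 lies at 1265701 and 2005935, Sms, Srm and Azin1 between 302 and 6218, and the other 6 genes at 38 counts or fewer.

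Among the synthesis genes, Sms was higher and Odc1 lower in siDnmt1, while Srm differed little. Sms had 6218 counts in siDnmt1 and 3538 in scrambled, 1.76-fold higher (1.69 to 1.83). Its log2 ratio of 0.81 was above that of most genes, with 82.8% of the genes compared at or below it. Srm had 1153 and 1254 counts, 1.09-fold lower (1.003 to 1.18). Its log2 ratio of -0.12 turned to 0.60 after the general trend of ratio with transcript length was removed. The Srm transcript is short (1338 nt against a median of 3530 nt over the genes compared), and the 1820 shortest genes, up to 2380 nt, had a median log2 ratio of -0.48 against 0.18 for the 1820 longest, from 5125 nt. The same step left Odc1 lower at -0.50 and Sms higher at 0.75.

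Per kb of transcript the synthases lay far below Odc1. Srm stood at 862 counts per kb in siDnmt1 and 937 in scrambled, and Sms at 1673 and 952. In the scrambled library the synthases were thus nearly level, and in siDnmt1 Sms was ahead. The ratio of Srm to Sms counts within a library, which no scaling between libraries can change, was 0.185 in siDnmt1 and 0.354 in scrambled. The length trend does bear on it, since with that trend removed the log2 ratios of Srm and Sms between the libraries, 0.60 and 0.75, lay close together. Odc1 had 204 counts for each count of Sms in siDnmt1 and 567 in scrambled. For each count of Srm it had 1098 and 1600. These last pairs were chosen after their values were seen.

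Amd1, the S-adenosylmethionine decarboxylase gene, was listed at 0 in both libraries, and so was its copy Amd2. At the floor of 3 counts, a count of 0 allows up to 0.245 counts per 1e6 (CPM) in siDnmt1 and 0.257 CPM in scrambled. Since 92.3% of the Amd1 31-base words occur elsewhere, these zeros are given as listed and not as a level of the transcript.

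The breakdown genes had few counts. Sat1, whose product acetylates spermidine and spermine for export or oxidation, had 23 counts in siDnmt1 and 38 in scrambled, 1.65-fold lower, with equality inside its interval (0.959 to 2.90). Its log2 ratio was -0.62, and 0.27 after the length trend was removed (1162 nt). Smox, which oxidises spermine directly, had 0 counts in siDnmt1 and 22 in scrambled, at least 7.33-fold lower in siDnmt1 when the library at 0 is set at the floor of 3 counts. The 95% interval of counting error reaches down to 5.48-fold. Paox, which oxidises the acetylated polyamines, had 0 and 1. All 3 genes together had 23 counts in siDnmt1 and 61 in scrambled.

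Each library therefore held far more counts of synthesis than of breakdown genes. With Odc1 left out, Srm and Sms together had 320 counts per count of the breakdown genes in siDnmt1 and 78.6 in scrambled, 4.08-fold apart. Per kb of transcript the same ratios were 128 and 44.5, which is 2.88-fold apart. With Odc1 included the ratios of counts were 55351 and 32963. The denominators are 23 and 61 counts, so these ratios are imprecise. The length trend between the libraries bears on them too, and counts per kb do not remove it. With that trend removed, the log2 ratio of Sat1, which held most of the breakdown counts, went from -0.62 to 0.27. That of Smox went from -2.43 to -2.29.

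Among the regulators, Azin1 was higher in siDnmt1. It had 554 counts against 302, 1.83-fold higher (1.59 to 2.12), with 84.3% of the genes compared at or below its log2 ratio of 0.86. After the length trend was removed the value was 0.70. Odc1 and Azin1 thus lay on opposite sides of equality. Within a library, Odc1 had 2285 counts for each count of Azin1 in siDnmt1 and 6642 in scrambled, 2.91-fold apart.

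Few or no counts were listed for the antizyme genes. Oaz1 was listed at 0 in both libraries, as was Oaz1-ps, and 56.7% of the Oaz1 31-base words are shared with that copy. As for Amd1, these zeros are given as listed and not as a level of the transcript. Oaz2 had 6 counts in siDnmt1 and 3 in scrambled, a ratio of 2.00 with an interval of 0.427 to 12.4. No direction can be read from it. Antizyme is made through a frameshift during translation, which RNA counts do not measure.

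**Figure D3:**
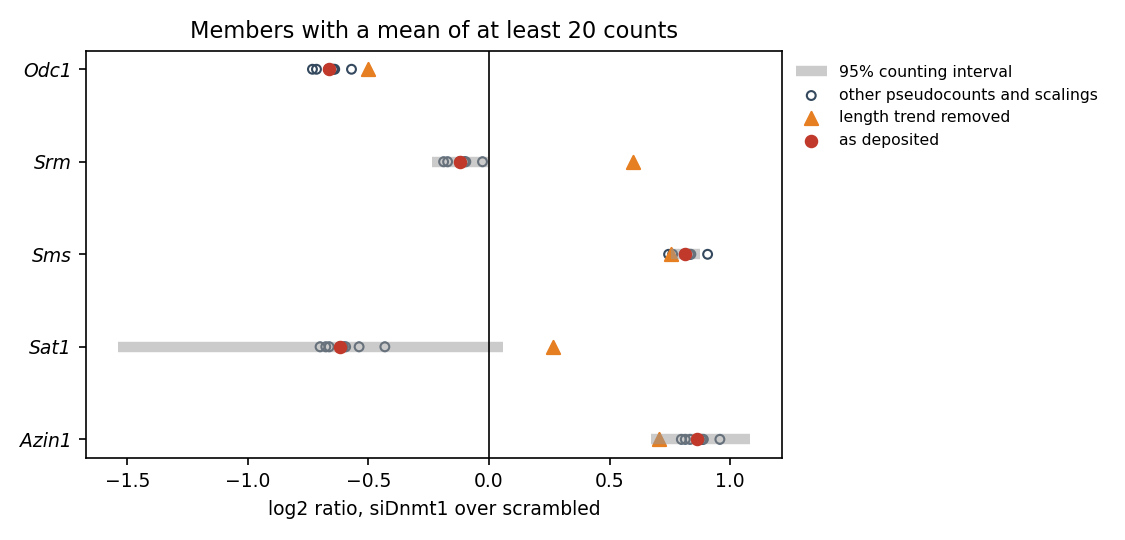
Log2 ratio (siDnmt1 over scrambled) of the 5 members with a mean of at least 20 counts, as deposited (red), under other pseudocounts and scalings (open circles) and with the length trend removed (orange triangles), with the 95% interval of counting error (grey bar). Odc1 stays below 0 and Sms and Azin1 above 0 under all of them, while Srm and Sat1 move from below to above 0 when the length trend is removed.

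Without Odc1, the other members had 7954 counts in siDnmt1 and 5158 in scrambled, of which Sms held most. Odc1 made up 99.4% and 99.7% of the counts of all 10 members. With Rn45s and Odc1 left out of the totals, the other 9 stood at 1242 CPM in siDnmt1 and 834 CPM in scrambled.

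**Figure D4:**
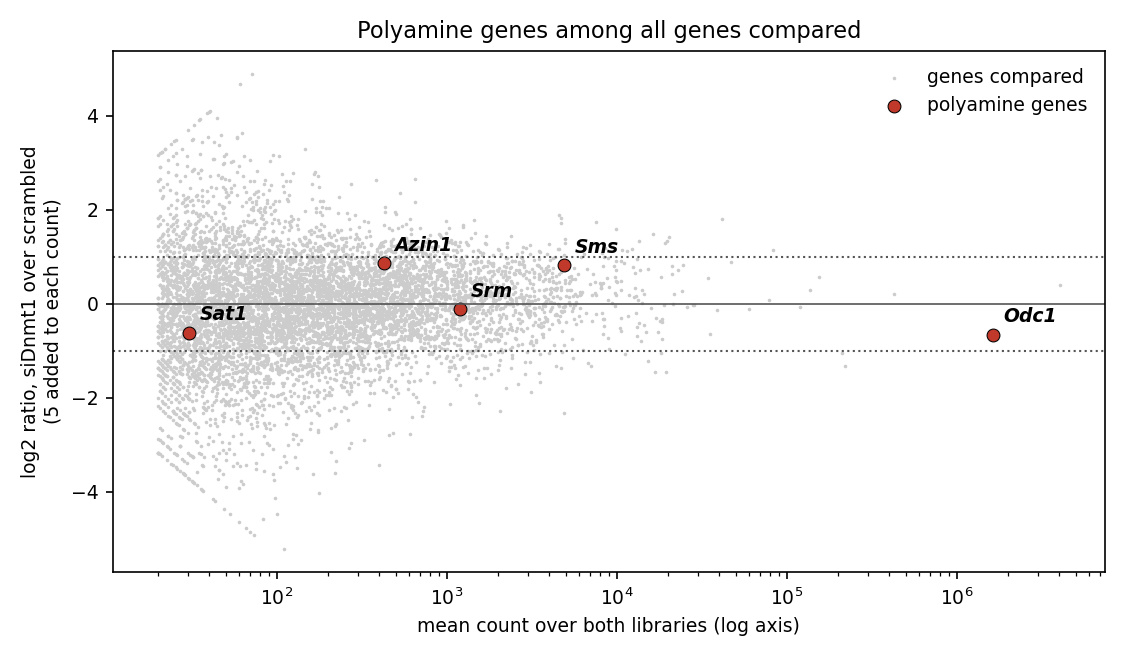
Log2 ratio (siDnmt1 over scrambled, 5 added to each count) against the mean count on a log axis for the 7315 genes compared (grey) and the 5 polyamine genes among them (red), with dotted lines at 2-fold. All 5 lie between the dotted lines, and Odc1 lies further right than every grey point except Rn45s.

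The genes around the pathway were followed through 6 lists: supply of arginine and ornithine, the methionine cycle and its salvage branch, hypusine and eIF5A, transport, other polyamine genes, and regulators of Odc1. Of their 89 genes in the table, 38 had a mean of at least 20 counts. In siDnmt1, 4 of the 38 reached 2-fold upward (10.5%) and 5 downward (13.2%), close to the 12.5% and 16.7% of all genes compared. Their median log2 ratio was -0.25, against -0.02 over all genes compared. It was -0.06 with the length trend removed and 0.04 at a mean of at least 100 counts, so its direction depends on these settings.

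Ornithine supply was thinly measured, with 3 of 19 genes passing the mean and none of the arginase genes among them. Oat, the mitochondrial ornithine aminotransferase, had 148 counts in siDnmt1 and 136 in scrambled (1.09-fold, 0.856 to 1.38). Asl, argininosuccinate lyase, had 29 and 78 (2.69-fold lower, 1.74 to 4.27). Nos1, a nitric oxide synthase that consumes arginine, had 61 and 128 (2.10-fold lower, 1.54 to 2.90).

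In the methionine cycle, which supplies the aminopropyl donor, 13 of 20 genes passed, with a median of 0.22. Of the 13, 2 reached 2-fold upward in siDnmt1 and 2 downward (15.4% each, against 12.5% and 16.7% of all genes compared). Mat2a, the S-adenosylmethionine synthetase gene, had 14182 counts in siDnmt1 and 14113 in scrambled, a log2 ratio of 0.01. Its regulatory partner Mat2b had 134 and 322 (2.40-fold lower, 1.96 to 2.96). Bhmt, which remakes methionine with betaine, had 933 and 306 (3.05-fold higher, 2.68 to 3.48). Ahcy, which clears S-adenosylhomocysteine, had 59 and 26 (2.27-fold higher, 1.41 to 3.75). Apip, an enzyme of the salvage branch that recycles the by-product of spermidine and spermine synthesis, had 0 and 58, at least 19.3-fold lower at the floor of 3 counts, with an interval that reaches down to 15.2-fold. Its transcript is short (919 nt), and its fitted log2 ratio of -3.66 was -2.55 with the length trend removed.

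The use of spermidine for hypusine, a modified amino acid of the translation factor eIF5A, was represented by 2 of 4 genes. Eif5a had 653 counts in siDnmt1 and 595 in scrambled (1.10-fold higher, 0.981 to 1.23). Dhps, the enzyme of the first step, had 188 and 268 (1.43-fold lower, 1.18 to 1.73), and its log2 ratio of -0.50 turned to 0.22 with the length trend removed. Neither gene was 2-fold apart.

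In transport, 4 of 16 genes passed and all 4 lay within 2-fold. Atp13a3, a P5B-type ATPase of polyamine uptake, had 2263 counts in siDnmt1 and 1796 in scrambled (1.26-fold higher, 1.18 to 1.34). Slc3a2, the heavy chain of amino acid transporters, had 1696 and 1598 (1.06-fold, 0.991 to 1.14). Slc7a2, a cationic amino acid transporter, had 50 and 67, and Gpc1, a heparan sulphate proteoglycan gene, 113 and 156. Of the other polyamine genes, 2 of 10 passed. Aldh9a1, an aldehyde dehydrogenase, had 198 and 295 (1.49-fold lower, 1.24 to 1.79), and Aldh2, the mitochondrial aldehyde dehydrogenase, had 7 and 44 (6.29-fold lower, 2.81 to 16.5).

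Among the regulators of Odc1, 14 of 20 genes passed, with a median of -0.27. Of the 14, 2 were at least 2-fold higher (14.3% against 12.5% of all genes compared). None (0) were at least 2-fold lower, against 16.7% of all genes compared. Myc, a transcriptional activator of Odc1, had 162 counts in siDnmt1 and 241 in scrambled (1.49-fold lower, 1.21 to 1.83). Mxi1, an antagonist of Myc, had 53 and 13 (4.08-fold higher, 2.19 to 8.15). Zfp36, which encodes a protein that destabilises AU-rich mRNAs, had 89 and 27 (3.30-fold higher, 2.12 to 5.28). Eif4g1, the scaffold of the cap-binding complex, had 13818 and 21055 (1.52-fold lower, 1.49 to 1.56). These are the 2 lowest and 2 highest ratios of the list. Of the genes between them, Mnt, also an antagonist of Myc, had 66 and 82 (1.24-fold lower, 0.888 to 1.74). Sp1 had 1601 and 1142 (1.40-fold higher, 1.30 to 1.51). Elavl1 had 622 and 521 (1.19-fold higher, 1.06 to 1.34). How the values of the list relate to that of Odc1 was not tested.

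**Figure D5:**
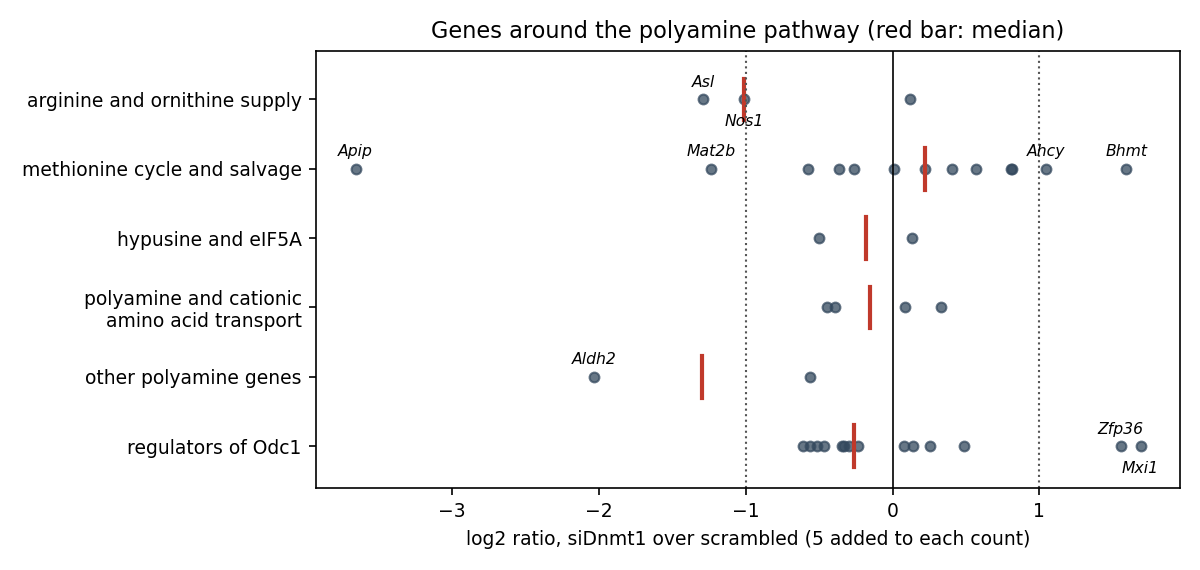
Log2 ratio (siDnmt1 over scrambled, 5 added to each count) of each gene that averaged at least 20 counts in the 6 lists (1 point per gene, red bar at the median, dotted lines at 2-fold). The 9 genes past 2-fold are named, and the other 29 lie between the dotted lines.

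For the libraries as a whole, the totals were 12236615 (siDnmt1) and 11675483 (scrambled). Dnmt1 had 687 counts in siDnmt1 against 847 in scrambled, 1.23-fold lower (1.11 to 1.37). Its log2 ratio of -0.30 lay inside the range of -0.67 to 0.57 given above for the middle of the genes compared. Whether the siRNA lowered Dnmt1 was not tested. All 17 preimplantation embryo markers examined had a count in at least 1 library, among them Pou5f1 with 1489 in siDnmt1 and 2152 in scrambled. Of the 12 that averaged at least 20 counts, none (0) reached 2-fold upward in siDnmt1 and 4 reached it downward (33.3% against 16.7% of all genes compared), Dppa3, Zp3, Tfap2c and Dppa4. The median log2 ratio of the 12 was -0.48, and 0.02 with the length trend removed. The list summed to 8875 counts in siDnmt1 and 13315 in scrambled, and its part in the values of the polyamine genes was not tested. Of 11 cumulus or granulosa cell markers, 9 were at 0 in both libraries, and the list summed to 10 and 3 counts. The 4 sperm markers were all at 0. The blood list summed to 16 and 6 counts with both globin genes at 0, and the fibroblast list to 18 and 16 with all 3 collagen genes at 0. The oviduct list summed to 97 and 261, of which Epcam gave 97 and 258.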

How the data were processed

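RNA was captured on oligo-dT beads from 1 embryo pool per group, and adapter-tagged cDNA was amplified by 20 cycles of PCR without molecular identifiers, per the labels' protocols. Copies made by amplification are thus counted as separate reads. The intervals take each count as an independent read, so they are too narrow where copies were counted. The table of whole-number counts per gene was deposited by the authors under a name that says DESeq2-normalized. Trim Galore, HISAT2, HTSeq, DESeq2 and mm9 are named in the submitters' processing notes, without versions. Which gene annotation was used, whether strand was used and how multiply matching reads were counted are not given in those sources.

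The values were read as unscaled counts. No whole number from 1 to 149 was absent from either column (0), whereas copies scaled up by 1.005 or more lacked at least 1. DESeq2 size factors computed here on the deposited values were 1 and 1, which already normalized values would give too, so they do not tell these readings apart. Division by a size factor above 1 is not detected by the whole numbers, and intervals would on that account be too wide.

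The totals were 12236615 (siDnmt1) and 11675483 (scrambled). Groups came from the siRNA label. With 1 library per group there is nothing to fit edgeR's quasi-likelihood model to, and p-values are not given. Ratios used a pseudocount of 5 and a mean of at least 20 counts, and plain folds used counts alone. The number of genes past 2-fold was counted with no test. Lengths came from the longest protein-coding GENCODE M21 transcript (GRCm38), found for 7270 of 7315 genes (99.4%), and the length trend was a lowess curve (span 0.3). The 31-base words, of the same transcripts, were counted on both strands.

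The members and lists were chosen with earlier results of these data known. Named genes are the members, the 10 largest rows, the 5 genes nearest to Odc1 in ratio that average at least 1000 counts, and each list's 2 highest and 2 lowest (all where fewer than 5). Mat2a, Mnt, Sp1, Elavl1, Gm15645, Epcam, Pou5f1 and the other embryo markers were named after their values were seen. So were the genes with low counts (Arg1, Arg2, Agmat, Adc, Oaz3, Satl1, Atp13a2). Alternatives were other pseudocounts, filters, thresholds, scalings and the length trend. Tools were R 4.3.3 with DESeq2 1.42.0 and edgeR 4.0.16, and Python 3.11.15 with statsmodels 0.14.6, scipy 1.17.1, matplotlib 3.10.9, pandas 2.3.3 and numpy 2.4.6.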

Additional observations from a re-analysis of the deposited data

How the results depend on the processing

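The log2 ratio of Odc1, -0.66 as deposited, was -0.73 with equal totals, -0.57 with equal totals without Rn45s, -0.72 without Rn45s and Odc1, -0.64 with the median of all genes at 0, -0.65 with edgeR TMM factors and -0.50 with the length trend removed. Sms and Azin1 stayed above 0 in all 9 alternatives each. With the length trend removed Srm turned to 0.60, and the median of the members became 0.60. The cause of the trend was not tested. At a mean of at least 100 counts that median was 0.35 over 4 members, since Sat1 drops out. The scalings moved the median of all genes by -0.07 to 0.09.

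The share of Odc1 became 16.5% and 24.5% without Rn45s, and 20.3% (siDnmt1) and 30.2% (scrambled) when the 10 largest other rows were left out. With no filter 1 of 8 members with a count, Smox, was at least 2-fold lower. At 1.5-fold, 2 of 5 members were higher and 2 lower, against 24.7% and 28% of all genes compared. For the pathway lists without the filter, 7 of 70 genes with a count were higher and 8 lower. At a mean of at least 100 counts, 1 of 24 was higher and 1 lower. The shares of all genes under these other filters were not counted. At 4-fold, 0 of 38 were higher and 2 lower, against 2.64% and 4.51% of all genes compared. The log2 change of synthesis over breakdown counts, 0.75, was 0.44 per kb and 0.34 with 5 added to each count. Without Odc1 it was 2.03, then 1.53 and 1.62. Antizyme over Azin1 counts turned from 0.12 to -0.57 with 5 added, since it rests on 6 and 3 counts.

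No paired analysis was possible because each group has 1 library, and for the same reason leave-one-out values do not exist. Leaving out mitochondrial rows was not run, as 0 rows carry that prefix. On plain counts, ratios of Odc1 to Oaz1 and Amd1 have a 0 in the denominator in both libraries, and Sat1 over Smox in siDnmt1 (1.73 in scrambled). With 5 added to each count, Sat1 over Smox was 5.6 in siDnmt1 and 1.59 in scrambled, which rests on the added value. Genes with a handful of counts are limited by depth.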

Other observations

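The genes nearest to Odc1 in log2 ratio, among those averaging at least 1000 counts, were Ptpn12 (-0.66), F11r (-0.65), Eif3d (-0.65), Ctsl (-0.65) and Dock9 (-0.68). Ptpn12 is a tyrosine phosphatase gene with 1059 counts in siDnmt1 and 1671 in scrambled. F11r, a tight junction adhesion gene, had 6405 and 10085. Ctsl, the lysosomal protease cathepsin L, had 27595 and 43402. Likeness over 2 libraries is a single ratio and says nothing further.

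Several genes beside the pathway had counts too low for the ratios above. Arg1 and Arg2, the arginases that make ornithine, had 13 and 3 counts in siDnmt1 and 18 and 21 in scrambled. Agmat, of the agmatine route to putrescine, had 0 counts in siDnmt1 and 2 in scrambled, and Adc, an antizyme inhibitor gene now called Azin2, had 1 in each. Oaz3, the testis antizyme, and Satl1 were at 0 in both libraries. Atp13a2, a lysosomal polyamine exporter, had 32 counts in siDnmt1 and 7 in scrambled, a ratio of 4.57 with an interval of 1.98 to 12.3.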
